A study of Mus musculus with 24 samples.

Results

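The T cell receptor that CD4 T cells carry is a pair of an alpha and a beta chain, and its gene segments were followed here in RNA from 3 sorted populations of the mouse colon. All rows of the deposited count table whose mouse symbol names an alpha or beta variable (TRAV, TRBV) or joining (TRAJ, TRBJ) segment, or the constant genes Trac, Trbc1 and Trbc2, were taken, 207 of 27179 gene identifiers. They were 116 TRAV, 51 TRAJ, 24 TRBV and 13 TRBJ segments with the 3 constant genes. The alpha genes lie on chromosome 14 and the beta genes on chromosome 6 of GRCm38, the assembly behind mm10. Another 35 RefSeq symbols of the same form were not analysed here.

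All mice were Nmur1iCre-eGFP mice, in which the Nmur1 locus drives Cre and eGFP. Nmur1 encodes a receptor for the neuropeptide neuromedin U (NMU). They drank dextran sulfate sodium at 3%, an agent that damages the gut epithelium, over 5 days, then water over 3 days, and received NMU or phosphate-buffered saline (PBS) intraperitoneally every other day. Age and sex are not given in the labels. From the colonic lamina propria of each mouse came Nmur1-eGFP+ group 2 innate lymphoid cells (ILC2; CD45+ Lin- CD90.2+ CD127+ KLRG1+), NMUR1+ CD4 T cells and NMUR1- CD4 T cells (both CD45+ CD3+ CD5+ CD4+, with and without eGFP). The labels name 4 NMU mice, here mice 1 to 4, and 4 PBS mice, mice 5 to 8, while the series' design text counts 3 per treatment. The 24 libraries of 8 mice thus formed 6 groups of 4. The sorting markers fitted their labels in the RNA: Cd3e averaged 5.71 CPM (counts relative to the scaled library size) in ILC2, 856 in NMUR1+ and 922 in NMUR1- cells, and Nmur1 averaged 234, 41.2 and 4.36 CPM in the same order. In mouse 1 the library labelled NMUR1+ did not stand above the NMUR1- library in Nmur1 (6.13 and 7.18 CPM), and the calls, sums, ratios, evenness and distances between the CD4 populations are therefore also given without this mouse.

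Each alpha beta T cell builds its receptor genes by cutting out the DNA between a variable and a joining segment, with a short diversity segment (Trbd) in between for the beta chain. The joined exon is spliced to a constant gene, so that a mature beta transcript holds 1 V, 1 J and 1 C sequence. The beta locus has 2 clusters, each with its own diversity segment, joining segments and constant gene: Trbd1, the TRBJ1 segments and Trbc1, then Trbd2, the TRBJ2 segments and Trbc2. Transcription can also start at unrearranged segments and give germline transcripts that hold a J and a C sequence without a V. ILC2 are lymphocytes that do not carry an alpha beta receptor. Reads per segment gene show which segments a population uses, but not which V is joined to which J, nor single clones.

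The joining segments on which the results below turn are short. They are shown as germline sequences from the GENCODE M21 transcripts of GRCm38, plus strand, with the bases of the Phe-Gly-X-Gly motif typical of J segments in capitals. Trbj1-1 (chr6:41533864-41533911), Trbj1-2 (chr6:41534001-41534048) and Trbj2-1 (chr6:41542754-41542803) led in ILC2, Trbj1-4 (chr6:41534811-41534861) had the highest mean share in NMUR1+ cells, and Trbj2-5 (chr6:41543453-41543501) was nearly unused in ILC2.
Trbj1-1: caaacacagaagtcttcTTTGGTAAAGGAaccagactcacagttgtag
Trbj1-2: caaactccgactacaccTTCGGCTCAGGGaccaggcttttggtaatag
Trbj1-4: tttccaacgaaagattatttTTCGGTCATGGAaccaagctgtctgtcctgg
Trbj2-1: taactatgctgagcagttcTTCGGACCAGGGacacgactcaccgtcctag
Trbj2-5: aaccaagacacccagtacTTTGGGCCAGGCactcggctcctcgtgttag
The motif, searched as a pattern of bases that can encode it, in any reading frame, was present in 11 of 13 TRBJ (84.6%) and 42 of 51 TRAJ segments (82.4%). The TRBJ sequences without it were Trbj1-6 and Trbj1-7. TRBJ segments have exonic lengths of 46 to 54 bases, so counts within the class compare segments of nearly equal length.

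Total counts ran from 8485266 to 17854961 per library. Members held 4396 to 9605 counts in ILC2, 20436 to 57097 in NMUR1+ and 37255 to 61196 in NMUR1- libraries. Of the 207 members, 172 had counts in at least 1 library and 127 passed the filter on low counts in the fit of all 24 libraries. Of the 35 members without any count, 34 were TRAV copies of the duplicated d and n blocks of the locus, and 30 of the 33 TRAV segments without counts that had a sequence held no stretch of 50 bases that was theirs alone. Counts of TRAV copies are therefore uncertain where reads could not be placed between them. The same holds in part for Trbc1 and Trbc2, whose GENCODE sequences were identical at 488 of 512 aligned bases (95.3%). The immunoglobulin share of counts ran from 0.785 to 30.4% in NMUR1+ cells, against 0.148 to 5.59% in NMUR1- cells. It exceeded 20% in the NMUR1+ libraries of mice 1, 4, 5 and 7, and the same results are given without these 4 mice too.

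The constant genes and 3 segments of the beta chain were lower in NMUR1+ than in NMUR1- CD4 T cells, while no alpha chain gene passed the test. Of the 127 members tested, 5 fell and 0 rose in NMUR1+ cells at an adjusted p below 0.05 in edgeR's quasi-likelihood test over all genes. Among all 13509 genes tested, 2.83% were lower and 5.49% higher by the same rule, 8.31% in either direction, so that the share of members called lower is near that of all genes. All 5 were beta chain genes: the constant genes Trbc1 and Trbc2, the variable segments Trbv19 and Trbv20, and the joining segment Trbj1-1. The other 19 TRBV and 12 TRBJ segments tested did not pass. At an unadjusted p below 0.05 stood 15 members, of which only Trav6-7-dv9 was higher. DESeq2 called 6 lower and 0 higher.

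Trbc2 (Gene ID 100125263, chr6:41546730-41548181), the constant gene of the second cluster, was at 295, 308 and 462 CPM (lowest, median, highest) in the 8 NMUR1+ libraries and at 416, 507 and 602.9 CPM in the 8 NMUR1- libraries. It was lower in the NMUR1+ library in 8 of 8 mice, although the ranges overlapped, and fell by 0.55 on the log2 scale (SE 0.13, edgeR adjusted p = 0.00916). Trbc1 (Gene ID 100125262, chr6:41538219-41539665), the constant gene of the first cluster, was at 139, 205 and 222 CPM in NMUR1+ and at 224, 241 and 306 CPM in NMUR1- libraries. Its ranges did not overlap, which was true of 1 of 127 members and of 3.29% of all genes tested, and it fell by 0.41 (SE 0.12, edgeR adjusted p = 0.0304). Trac (Gene ID 100101484, chr14:54220521-54224198), the only constant gene of the alpha chain, was at 1058, 1258 and 1588 CPM in NMUR1+ and at 1200, 1407 and 1567 CPM in NMUR1- libraries. These ranges overlapped nearly throughout, Trac was lower in NMUR1+ cells in 5 of 8 mice, and its difference was -0.09 (SE 0.16, edgeR adjusted p = 0.852).

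Trbv20 (chr6:41188273-41188977) was at 13.5, 18.2 and 34.9 CPM in NMUR1+ and at 31.1, 36.5 and 47.2 CPM in NMUR1- libraries and fell by 0.86 (SE 0.21, edgeR adjusted p = 0.0143). Trbv19 (chr6:41178589-41179048) was at 12.8, 22.6 and 35.8 against 27.4, 36.4 and 73.1 CPM and fell by 0.85 (SE 0.24, edgeR adjusted p = 0.0345). The ranges of both V segments overlapped between the populations. Trbj1-1 was at 2.06, 3.74 and 5.65 against 4.98, 5.81 and 7.34 CPM and fell by 0.66 (SE 0.18, edgeR adjusted p = 0.0248). The class medians of the log2 difference were -0.69 for 21 TRBV, -0.61 for 13 TRBJ, -0.18 for 61 TRAV and -0.12 for 29 TRAJ segments tested, against -0.01 for all genes. In 7 or 8 mice, 16 of 21 TRBV and 9 of 13 TRBJ segments were lower in NMUR1+ cells, against 11 of 61 TRAV and 4 of 29 TRAJ segments.

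**Figure D1:**
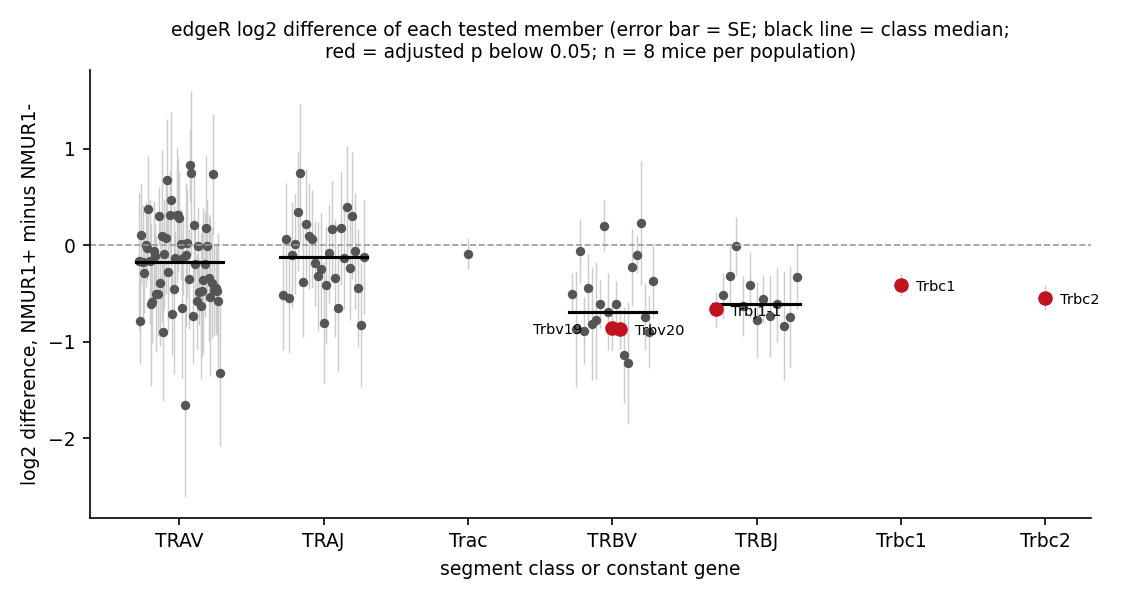
Log2 difference (NMUR1+ minus NMUR1-) of every tested member, by segment class, with its SE. Class medians lie at -0.69 for TRBV and -0.61 for TRBJ and near 0 for the alpha classes, and the 5 members past the threshold, in red, all lie below 0.

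Summed over a class, TRBV averaged 433 ± 66.4 CPM for NMUR1+ against 605 ± 77.0 CPM for NMUR1- cells (SD, n = 8), and TRBJ 31.1 ± 5.28 and 43.9 ± 4.48 CPM. Both sums were lower in NMUR1+ cells in 8 of 8 mice. TRAV sums were 237 ± 37.5 and 251 ± 33.8 CPM, lower in 6 of 8 mice, and TRAJ sums 40.9 ± 7.54 and 44.3 ± 4.46 CPM, lower in 4 of 8. Within a library, which needs no scaling between libraries, counts of both beta constant genes amounted to 0.422 ± 0.0864 of the Trac counts in NMUR1+ and 0.555 ± 0.0868 in NMUR1- cells. TRBV counts amounted to 1.84 ± 0.268 and 2.45 ± 0.479 times the TRAV counts. Each ratio was lower in NMUR1+ cells in 8 of 8 mice, and in 4 of 4 mice without a high immunoglobulin share (0.467 against 0.604, and 1.99 against 2.70). Without mouse 1 the sums averaged 427 and 609 CPM for TRBV and 30.7 and 43.8 CPM for TRBJ, and the ratios 0.435 and 0.5677, and 1.85 and 2.51, all lower in NMUR1+ cells in 7 of 7 mice. TRBV counts per beta constant count differed little, at 0.797 ± 0.0562 and 0.788 ± 0.0192. These are ratios of counts, not per length, and serve only to compare populations.

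**Figure D2:**
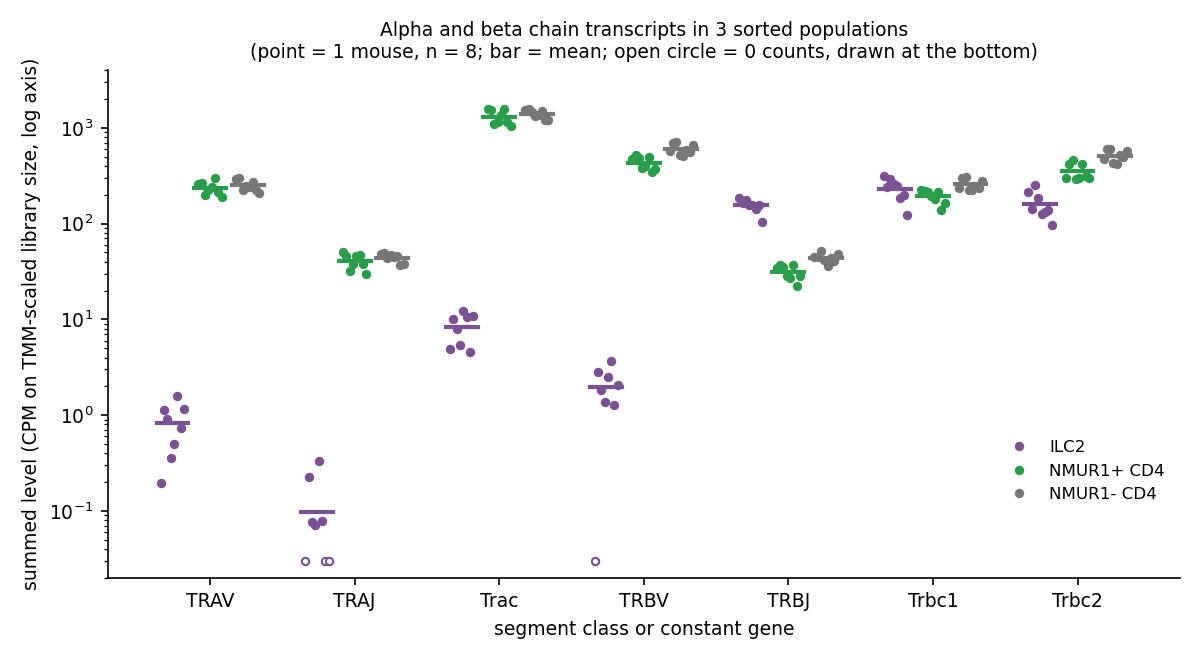
Summed level in CPM (log axis) of each segment class and constant gene in ILC2, NMUR1+ and NMUR1- CD4 T cells, 1 point per mouse with the mean as a bar. The alpha classes of both CD4 populations overlap, TRBV and TRBJ are lower in NMUR1+ cells, and ILC2 lie far below both populations for TRAV, TRAJ, Trac and TRBV but not for TRBJ, Trbc1 and Trbc2.

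The 5 calls were close to the threshold. Without mouse 3, 7 or 8, 1 member was lower, without mouse 1 or 4 it was 2, without mouse 5 it was 3, without mouse 2 it was 4 and without mouse 6 it was 6. In the 4 mice without a high immunoglobulin share edgeR called 0 of 137, with 9 at an unadjusted p below 0.05, and the log2 differences stood at -0.56 for Trbc2, -0.51 for Trbc1 and -0.15 for Trac. When libraries were scaled to their TRAV and TRBV counts, which moved the median of all genes to 0.35, 1 member (Trbv20) was lower and 3 were higher, Trac at 0.26 (edgeR adjusted p = 0.0194), Trav6-7-dv9 and Trav14n-3 (the latter named after its values were seen), against 1.17% lower and 28.4% higher, 29.6% in either direction, of all genes. This scale is made of counts of the tested members themselves. Member calls and medians on it therefore only describe how alpha and beta counts stood to each other. On this scale the class median stood at 0.16 for TRAV and 0.20 for TRAJ, above 0, and at -0.35 for TRBV and -0.24 for TRBJ, so that the direction of the alpha classes depends on the scaling. On CPM over total counts all classes moved down together, TRAV to -0.42 and TRBV to -0.82.

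Of the other genes of receptor signaling, 1 passed the test. Of 4 CD3 genes, which encode the signaling chains of the complex, and of 3 coreceptor genes, none passed the test, with median log2 differences of 0.02 and 0.13. Cd3e stood at -0.11 and Cd4 at -0.23. Of 6 genes of proximal signaling, 1 fell, the kinase Zap70 by 0.32 (edgeR adjusted p = 0.0438), with a list median of -0.28. The recombination genes Rag1, Rag2 and Dntt and the pre-T alpha gene Ptcra summed to at most 1.12 CPM in any library, and Rag1 was at 0 in all. In bulk RNA, fewer cells of a type and less RNA per cell cannot be told apart.

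Some markers of other cells differed between the populations. Of 8 ILC2 markers, which include the sorting marker Nmur1, 7 were higher in NMUR1+ cells (summed level 2659 to 4708 against 995 to 1761 CPM). Of 7 B and plasma cell markers, 4 were higher in NMUR1+ cells, and their summed level ran from 3623 to 190071 CPM there and from 710 to 22063 CPM in NMUR1- cells. Of 6 macrophage markers, 3 were higher (660 to 2101 against 173 to 751 CPM), and none of either list was at 0 in a group. Of 4 regulatory T cell markers 1 was higher (2617 to 3982 against 2034 to 2664 CPM). Of 5 NK cell markers 1 was lower, with Ncr1 at 0 in NMUR1+ cells. The summed level of the NK list overlapped (35.9 to 487 against 57.5 to 202 CPM), with the highest value in an NMUR1+ library. Of 4 epithelial markers 1 was higher, with a list median of -1.19. None of 2 CD8 T cell markers, 5 fibroblast markers or 4 tested gamma and delta constant genes passed. The part of these cells in the beta chain difference was not tested. Per CD3 count, the difference in TRBV stood at -0.48 and that in both beta constant genes at -0.50 on the log2 scale, nearly the values per library.

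Segment counts were less even in NMUR1+ libraries. The Pielou index, which is 1 when all segments of a class have equal counts and 0 when a single one has all, was lower in the NMUR1+ library of 8 of 8 mice for TRAV, TRAJ and TRBV and of 7 of 8 for TRBJ. For TRAV it was 0.773 ± 0.0152 in NMUR1+ and 0.807 ± 0.0100 in NMUR1- cells (SD, n = 8), and for TRAJ 0.906 ± 0.0100 and 0.935 ± 0.00678. For TRBV it was 0.861 ± 0.0249 and 0.893 ± 0.00858, and for TRBJ 0.948 ± 0.0153 and 0.964 ± 0.00608. The TRAJ ranges of this index did not overlap (0.895 to 0.923 and 0.924 to 0.944). With the Miller-Madow correction for low counts, TRAJ evenness was 0.920 ± 0.0106 in NMUR1+ and 0.945 ± 0.00754 in NMUR1- cells. It was then lower in 7 of 8 mice, so that the ranges overlapped, while the other classes kept their numbers of mice. Expressed as the number of equally used segments that would give the same index, TRAV use came to 39.4 ± 2.86 and 46.4 ± 2.21 segments and TRBV use to 15.4 ± 1.18 and 17.1 ± 0.464. No test was made of these indices, which are scores over the members. The number of sorted cells per library did not enter them, and a library of fewer cells can be less even. Equal depth, used below, evens out counts and not cells. The part of cell numbers in evenness, leading shares, spreads and distances was not tested.

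**Figure D3:**
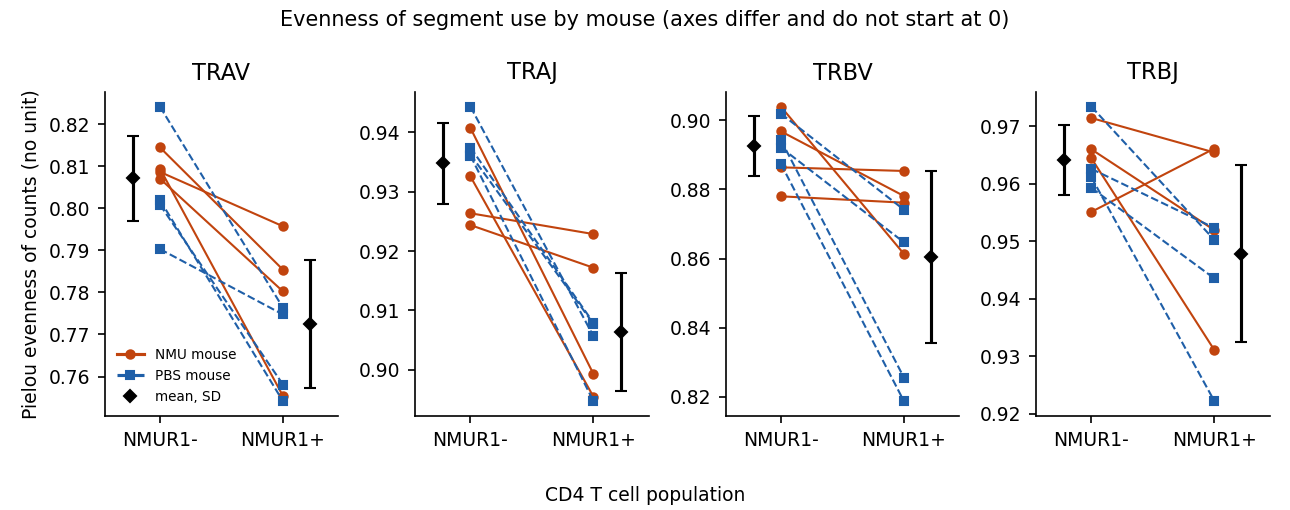
Pielou evenness of TRAV, TRAJ, TRBV and TRBJ counts in the NMUR1- and NMUR1+ library of each mouse, joined by a line, with the mean and SD of 8 mice beside them. All lines fall for TRAV, TRAJ and TRBV, and 1 of 8 rises for TRBJ.

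Depth differed more between NMUR1+ libraries. They held 1840 to 5536 TRAV counts, against 2958 to 4220 in NMUR1- libraries, and mouse 6 had more TRAV counts in its NMUR1+ library (5536 and 3901) with a lower index (0.775 and 0.790). Drawn down to 1840 counts by formula, NMUR1+ libraries held 67.4 ± 4.81 and NMUR1- libraries 73.8 ± 0.875 TRAV segments, fewer in 7 of 8 mice, and at 309 counts 45.5 ± 1.16 and 48.0 ± 0.372 TRAJ segments, fewer in 8 of 8. The beta classes hardly differed, with 21.4 ± 0.458 and 21.6 ± 0.4934 TRBV segments at 3328 counts, fewer in 5 of 8 mice, and 13.0 TRBJ segments in both populations at 233 counts. Without the 4 mice of high immunoglobulin share the TRAV numbers were 68.2 and 73.6, fewer in 3 of 4 mice, and the TRAJ numbers 45.7 and 47.9, fewer in 4 of 4, and without mouse 1 they were 67.1 and 73.8, and 45.6 and 48.1. With the inverse Simpson index, which weights common segments, the order held in 8 mice for TRAV (29.0 and 36.3), 7 for TRBJ (10.6 and 11.2) and 6 each for TRAJ and TRBV (13.0 and 15.2). In the 4 mice without a high immunoglobulin share every class was lower in 4 of 4, but the mean TRBV difference shrank from -0.0321 to -0.0145. Leaving out each mouse in turn, mouse 1 included, the mean difference ran from -0.0377 to -0.0318 for TRAV, -0.0320 to -0.0266 for TRAJ, -0.0365 to -0.0269 for TRBV and -0.0202 to -0.0131 for TRBJ.

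No segment took more than 22.2% of its class in a CD4 library. The most used TRAV segment held 6.17 to 13.2% of TRAV counts in NMUR1+ cells against 4.74 to 7.72% in NMUR1- cells, a larger share in the NMUR1+ library of 8 of 8 mice. The leading TRBV segment took 11.4 to 19.8% and 9.73 to 14.6%, larger in 6 of 8 mice. For the joining segments the leading share averaged 7.45 and 6.89% of TRAJ counts, larger in 5 of 8 mice, and 15.4 and 13.9% of TRBJ counts, larger in 4 of 8. Without the 4 mice of high immunoglobulin share the leading share averaged 7.33 and 5.88% for TRAV, larger in 4 of 4 mice, and 13.4 and 12.1% for TRBV, larger in 2 of 4. Without mouse 1 it averaged 7.76 and 6.12% for TRAV, larger in 7 of 7 mice. The leading segments differed between mice. In NMUR1+ libraries 6 TRAV segments led in at least 1 of 8 mice, among them, with Trav19 and Trav7-4 picked after their values were seen, Trav16n with 13.2% in mouse 1, Trav19 with 9.01% in mouse 5 and 8.62% in mouse 7, Trav7-4 with 8.87% in mouse 6 and Trav14-3 with 7.40% in mouse 4. Their NMUR1- libraries held 2.17%, 4.17%, 3.48%, 4.23% and 3.16% of the same segments. Because these segments were picked as leaders of an NMUR1+ library, a smaller share in the other library follows in part from that choice. In mouse 3, Trav3-3 led both libraries, with 7.29% in NMUR1+ and 5.60% in NMUR1- cells.

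For most TRBV, TRAJ and TRAV segments the share spread more between mice in NMUR1+ cells. Trbv13-2 took 11.3 ± 4.01% of the TRBV counts in NMUR1+ and 10.8 ± 1.32% in NMUR1- cells, Trbv3 12.8 ± 4.16% and 9.74 ± 2.51%, and Trbv15 6.84 ± 3.02% and 7.26 ± 2.26%. Shares of none of these 3 moved 1 way in all mice. Trbv16, picked after its values were seen, reached 14.3% and 14.7% in the NMUR1+ libraries of mice 1 and 5, against 5.09% and 6.58% in their NMUR1- libraries, and averaged 8.12 ± 4.20% and 5.06 ± 0.949%, but 5.75 and 4.34% in the 4 mice without a high immunoglobulin share. The members that fell in level, Trbv20 (4.65 ± 1.09% and 6.17 ± 0.894%) and Trbv19 (5.31 ± 1.91% and 6.92 ± 2.16%), also had a smaller share in 7 of 8 mice each. Of 23 TRBV segments with counts, 17 had a larger SD between mice in NMUR1+ cells, as did 41 of 51 TRAJ, 55 of 82 TRAV and 7 of 13 TRBJ segments. Without the mice of high immunoglobulin share these numbers were 15 of 23 TRBV, 37 of 51 TRAJ, 47 of 80 TRAV and 9 of 13 TRBJ segments, and without mouse 1 they were 16 of 23, 43 of 51, 50 of 82 and 8 of 13. NMUR1+ libraries held fewer counts, and with each class thinned to its smallest CD4 library (mean of 20 draws) the numbers over all mice were 17.15 TRBV, 34.95 TRAJ, 50.4 TRAV and 7.2 TRBJ segments. Thinned and without the mice of high immunoglobulin share, they were 15.25 of 22.45 TRBV, 32.5 of 50.9 TRAJ, 42.3 of 79.35 TRAV and 6.15 of 13 TRBJ segments. There the TRAV and TRBJ segments split nearly evenly between the populations.

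**Figure D4:**
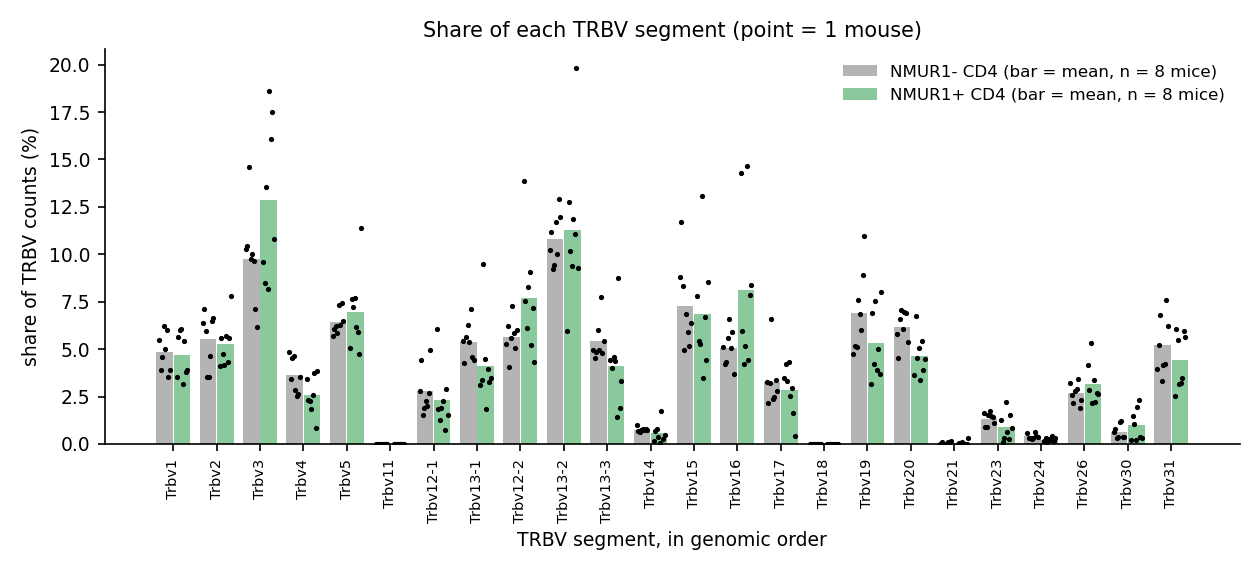
Share of each TRBV segment in the TRBV counts (%), in genomic order, with a bar for the mean of 8 mice and a point for each mouse. Trbv13-2 and Trbv3 lead in both populations, and single NMUR1+ libraries stand apart at Trbv3, Trbv12-2, Trbv13-2 and Trbv16.

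Among TRAV segments, Trav3-3 led the NMUR1- mean with 5.05 ± 1.21%, against 5.14 ± 2.28% in NMUR1+ cells. Trav14d-3-dv8, which can also join the delta chain, took 4.18 ± 1.84% in NMUR1- and 3.14 ± 0.682% in NMUR1+ cells, and Trav13-1 took 4.13 ± 1.12% and 4.18 ± 1.36%. Among TRAJ segments, Traj27, Traj23 and Traj17 led with 6.76 ± 1.41%, 4.52 ± 0.920% and 4.13 ± 1.19% in NMUR1- and 6.44 ± 1.16%, 5.05 ± 2.06% and 4.21 ± 1.16% in NMUR1+ cells. Among TRBJ segments, Trbj1-1 took 13.6 ± 1.25% and 11.9 ± 2.63%, Trbj1-2 11.9 ± 2.13% and 11.5 ± 3.41% and Trbj2-1 10.7 ± 2.05% and 10.2 ± 1.83%, in the same order. Trbj1-4 had a larger share in NMUR1+ cells in 7 of 8 mice (13.5 ± 3.91% against 9.48 ± 1.64%) and reached 22.2% in mouse 7. In the 4 mice without a high immunoglobulin share it took 12.3 and 9.08%, larger in 4 of 4.

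The profiles of TRAV and TRBV shares were less alike between mice in NMUR1+ cells. The Bray-Curtis distance, which is 0 for identical and 1 for disjoint profiles, averaged 0.280 (0.210 to 0.345) between the NMUR1+ libraries of different mice and 0.164 (0.131 to 0.198) between their NMUR1- libraries. These ranges did not overlap. At equal depth the averages were 0.281 and 0.174, and without mouse 1 they were 0.265 and 0.168 as counted. In the 4 mice without a high immunoglobulin share the averages moved closer, to 0.229 (0.210 to 0.248) and 0.178 (0.167 to 0.195), still without overlap, and TRBV evenness there spread no more in NMUR1+ (SD 0.00847) than in NMUR1- cells (SD 0.0101). The NMUR1+ library of a mouse lay on average 0.215 (0.169 to 0.265) from the NMUR1- library of the same mouse and 0.238 from those of other mice, and for 3 of 8 mice the nearest NMUR1- library was their own.

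Position along the alpha locus differed little. The mean TRAJ number, which counts down toward Trac, was 28.9 ± 0.730 in NMUR1+ and 28.8 ± 0.922 in NMUR1- cells and was higher in 4 of 8 mice. The mean rank of TRAV segments in genomic order was 82.3 ± 2.57 and 80.3 ± 2.33, higher in 6 of 8 mice, which is less than the spread between mice. Segments of invariant receptors had unequal counts. Natural killer T cells join Trav11 to Traj18, and mucosal-associated invariant T cells join Trav1 to Traj33. Trav11 had 1 count in all 24 libraries and Trav11d had 0. Trav11n, picked after its counts were seen, had 4 counts in all NMUR1+ and 35 in all NMUR1- libraries. Of the sequence stretches compared between copies, 0% were unique to Trav11 or to Trav11d, against 78.6% for Trav11n. Reads of Trav11 and Trav11d could thus not be placed between copies, and their low counts do not show that the segment was unused. Traj18 was a common TRAJ segment, with 8 to 40 counts per NMUR1+ and 15 to 31 per NMUR1- library. It took 3.75 ± 1.72 and 3.38 ± 0.546% of TRAJ counts and led in the NMUR1+ library of mouse 4 with 7.07%. Over all libraries Trav1 had 193 and 254 and Traj33 66 and 98. Trbv31, the only V segment beyond the constant genes, had a log2 difference of -0.74 between NMUR1+ and NMUR1- cells (SE 0.35, edgeR adjusted p = 0.225).

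In ILC2, beta joining and constant genes had many counts, while variable segments and the whole alpha chain had few. TRBJ counts summed to 1356 to 2309 per ILC2 library and beta constant counts to 2857 to 7154, but TRBV counts to 0 to 47, TRAV counts to 2 to 20, and TRAJ counts to 0 to 4. As a percentage of the NMUR1- mean level, ILC2 stood at 353 for TRBJ, 90.7 for Trbc1 and 31.5 for Trbc2, and at 0.596 for Trac, 0.322 for TRBV, 0.327 for TRAV and 0.222 for TRAJ. The T cell genes Cd4, Cd3e, Cd3d and Cd5 stood at 0.799, 0.620, 0.320 and 0.0920%, and Cd3g and Cd247 at 5.86 and 2.82%.

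Compared with NMUR1- cells in the fit of all 24 libraries, 5 of the 127 members tested were higher and 118 lower in ILC2, against 16.4% and 24.1% of all genes. Compared with NMUR1+ cells, 7 were higher and 116 lower, against 15.1% and 23.5%. In either direction 40.5% of all genes differed from NMUR1- and 38.6% from NMUR1+ cells. The same ILC2 libraries enter both comparisons. All 61 TRAV, 29 TRAJ and 21 TRBV segments tested were lower in both, and each higher member was a TRBJ segment. The V and TRAJ segments passed the filter on low counts through the CD4 libraries, so that these counts only describe them. Many V and TRAJ segments had 0 counts in every ILC2 library, so that single fold changes are not given.

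Trbc1 was at 124.2, 245 and 314 CPM (lowest, median, highest) in ILC2, and overlapped with both CD4 populations. Its log2 difference was -0.17 (SE 0.12, edgeR adjusted p = 0.271) from NMUR1- and 0.24 (SE 0.12, edgeR adjusted p = 0.103) from NMUR1+ cells, the latter past the threshold without mouse 6 or without mouse 8 (adjusted p = 0.0483 and 0.0350). Trbc2 was at 96.2, 141 and 253 CPM in ILC2, below every CD4 library, with a log2 difference of -1.71 (SE 0.13, edgeR adjusted p = 5.2e-10) from NMUR1- and -1.16 (SE 0.13, edgeR adjusted p = 2.5e-07) from NMUR1+ cells. Trac was at 4.52, 9.06 and 12.2 CPM in ILC2 with a difference of -7.40 (SE 0.22) from NMUR1- and -7.32 (SE 0.21) from NMUR1+ cells, with edgeR adjusted p of 5.0e-17 and 5.9e-17.

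Within libraries, the make-up of the beta counts differed. How reads across V, J and C genes were counted was not given, and it may differ between joined and unjoined segments. Its part in the TRBJ levels and ratios of ILC2 was not tested. Per beta constant count, ILC2 held 0.407 ± 0.0565 TRBJ counts, against 0.0572 ± 0.00481 in NMUR1+ and 0.0574 ± 0.00460 in NMUR1- cells. Per beta constant count, ILC2 held 0.00568 ± 0.00383 TRBV counts, against 0.797 and 0.788. There were 56.5 ± 31.0 beta constant counts per Trac count in ILC2, against 0.334 to 0.711 in CD4 libraries. ILC2 of mouse 1 held 0 counts of TRBV, Cd3e and Cd4 beside 3171 of Trbc1 and 1884 of TRBJ. A count of 0 there allows up to 0.297 CPM, for counting error only.

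Compared with CD4 T cells, counts in ILC2 leaned toward the first beta cluster. TRBJ1 counts were 7.35 ± 1.58 times the TRBJ2 counts in ILC2, 1.58 ± 0.128 times in NMUR1+ and 1.46 ± 0.251 times in NMUR1- cells, and Trbc2 counts were 0.695 ± 0.107, 1.83 ± 0.302 and 2.00 ± 0.0923 times the Trbc1 counts. Trbj1-1 led in 8 of 8 ILC2 libraries and took 47.1 ± 5.07% of the TRBJ counts. Trbj1-2 followed with 22.9 ± 2.22% and Trbj2-1, the first segment of the second cluster, with 9.61 ± 2.67%. The share was smaller after the first segments of each cluster, and Trbj2-5 took 0.0715 ± 0.0620%, against 4.78 ± 1.24% in NMUR1+ and 5.53 ± 1.30% in NMUR1- cells. The share ranges of ILC2 and CD4 libraries did not overlap for Trbj1-1, Trbj1-2 or Trbj2-5. Nor did they for Trbj1-4, Trbj2-2, Trbj2-3, Trbj2-4 or Trbj2-7, whose shares were smaller in ILC2.

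**Figure D5:**
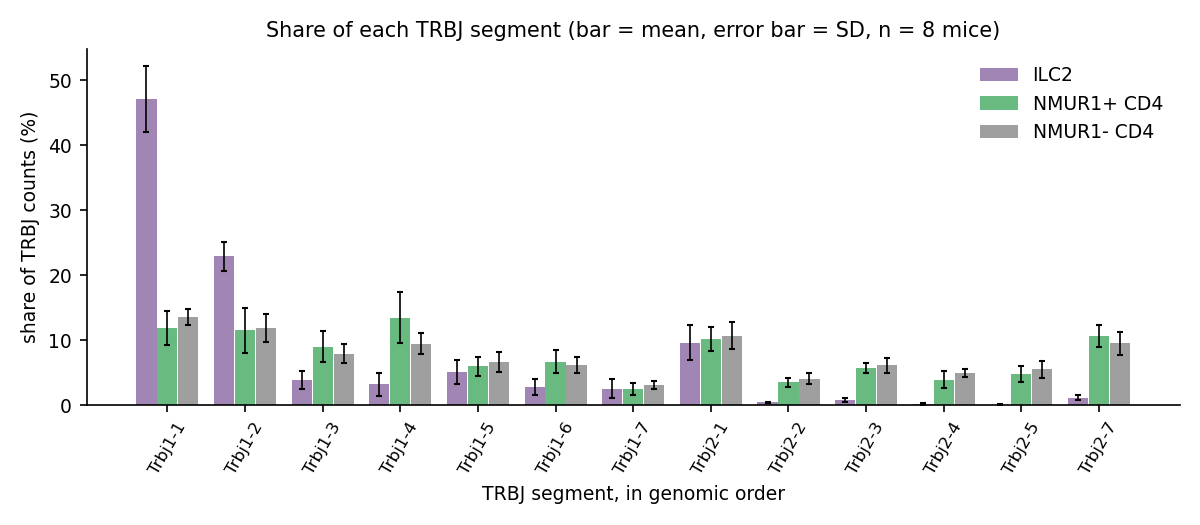
Share of each TRBJ segment in the TRBJ counts (%), in genomic order, mean and SD of 8 mice in 3 populations. Trbj1-1 takes 47.1% and Trbj1-2 22.9% in ILC2, where segments after Trbj2-1 take 1.17% or less on average, while both CD4 populations use all 13 segments.

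In level, Trbj1-1 was at 40.2, 78.6 and 91.3 CPM in ILC2 libraries and rose by 3.60 (SE 0.19, edgeR adjusted p = 1.5e-12) over NMUR1- and by 4.27 (SE 0.20, edgeR adjusted p = 3.9e-13) over NMUR1+ cells. Trbj1-2 was at 22.9, 35.03 and 48.8 CPM and rose by 2.77 (SE 0.24, edgeR adjusted p = 3.2e-09) and 3.29 (SE 0.25, edgeR adjusted p = 5.2e-10). Trbj2-1 was at 6.86, 14.0 and 22.4 CPM and rose by 1.62 (SE 0.25, edgeR adjusted p = 1.4e-05) and 2.18 (SE 0.26, edgeR adjusted p = 4.3e-07). Every ILC2 library lay above every CD4 library for all 3. The diversity segments, which are no members and were picked after their values were seen, differed by cluster: Trbd1 averaged 8.35 ± 1.31 CPM in ILC2, 4.38 ± 1.02 in NMUR1+ and 5.70 ± 1.34 in NMUR1- cells, and Trbd2 0.483 ± 0.392, 5.80 ± 1.10 and 8.83 ± 1.67 CPM.

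The few V counts in ILC2 were scattered over mice. The largest sums over 8 libraries were 65 for Trbv13-2, in 6 libraries, 34 for Trbv13-3, all in mouse 6, and 29 for Trbv12-2, in 4 libraries. Among TRAV segments 17 counts fell on Trav14-2, 14 of them in mouse 6, and 13 each on Trav6-3 and Trav6d-3. Of the gamma chain genes, Trgc1 and Trgc4 averaged 239 ± 81.8 and 286 ± 91.2 CPM in ILC2, against 14.9 ± 8.15 and 1.83 ± 0.999 CPM in NMUR1- cells. Of the 5 listed gamma and delta constant genes 4 were tested, with 2 higher and 1 lower in ILC2 than in either CD4 population. Of 8 ILC2 markers, 8 were higher in ILC2 than in NMUR1- cells and 6 than in NMUR1+ cells. The list includes Nmur1 and Klrg1, by which ILC2 were sorted. Foxp3 reached at most 0.916 CPM and Cd8a at most 0.0833 CPM in any ILC2 library.

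Between NMU and PBS, the level of no member differed in ILC2 past the threshold. Of 15 members tested there, edgeR called none (0.402% of 11205 genes were higher and 0.259% lower, 0.66% in either direction), with 4 at an unadjusted p below 0.05: Trbc2, Trbc1, Trbj2-1 and Trbj1-1. Trbc2 was at 215, 142, 253 and 184 CPM in NMU mice 1 to 4 and at 128, 132, 140 and 96.2 CPM in PBS mice 5 to 8. These values did not overlap, and the log2 difference was 0.66 (SE 0.19, edgeR adjusted p = 0.173), with an adjusted p of 0.0393 in DESeq2 and 0.0268 in edgeR with all 24 libraries in 1 fit. Trbc1 was at 314, 243, 292 and 261 against 247, 185, 197 and 124.2 CPM, which overlapped, with a difference of 0.54 (SE 0.19, edgeR adjusted p = 0.267) and an adjusted p of 0.0429 with all 24 libraries in 1 fit. That fit also called Trav14-2, named after its values were seen, lower with NMU, a segment with 17 counts in all ILC2 libraries, 14 of them in PBS mouse 6.

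Trbj2-1 was at 20.2, 15.99, 21.4 and 22.4 CPM with NMU and at 11.2, 11.9, 12.1 and 6.86 CPM with PBS, a log2 difference of 0.91 (SE 0.37, edgeR adjusted p = 0.346). Trbj1-1 was at 91.3, 87.9, 86.8 and 79.1 against 78.1, 60.8, 66.7 and 40.2 CPM, a difference of 0.47 (SE 0.21, edgeR adjusted p = 0.384). Neither overlapped between treatments. Trbj1-7, which lacks the J motif, was at 2.08, 2.25, 2.59 and 2.57 against 4.25, 5.06, 6.18 and 5.01 CPM, below PBS in each NMU library, a difference of -1.13 (SE 0.81, edgeR adjusted p = 0.662). In all, 7 of the 15 members did not overlap between treatments, against 9.38% of all genes tested. The others, named after their values were seen, were Trbj1-4, Trbj1-5 and Trbj1-6, which like Trbj1-7 were lower with NMU. All 7 are genes of the beta locus read in the same libraries, so they are not separate observations.

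The evenness of TRBJ use in ILC2 was 0.575, 0.574, 0.585 and 0.593 in NMU mice and 0.626, 0.663, 0.693 and 0.726 in PBS mice, without overlap (0.581 ± 0.00892 and 0.677 ± 0.0425, n = 4). Trbj2-1 took 11.8 ± 1.92% of TRBJ counts with NMU and 7.46 ± 0.814% with PBS, and Trbj1-5 took 3.61 ± 0.454% and 6.58 ± 1.29%. Immunoglobulin transcripts, which can mark RNA of other cells, took 0.0270 to 0.869% of counts in NMU and 0.666 to 7.94% in PBS libraries of ILC2. Trac was at 4.94, 10.1, 7.99 and 5.36 CPM with NMU and at 12.2, 10.6, 4.52 and 10.9 CPM with PBS. Their part in these differences was not tested.

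In CD4 T cells no member was called for NMU. edgeR called 0 of 108 members in NMUR1+ cells, with 3 at an unadjusted p below 0.05, and 0 of 122 in NMUR1- cells, with 5, and DESeq2 called none in either. Of all genes tested, 0% were called in either population. The smallest p in NMUR1- cells belonged to Trbv4, at 28.3, 23.9, 32.4 and 24.2 CPM in NMU and 14.5, 14.8, 14.9 and 23.4 CPM in PBS mice, a log2 difference of 0.68 (SE 0.20, edgeR adjusted p = 0.577). Trbv3 (0.61), Trav6-7-dv9 (0.72), Trav4-3 (0.66) and Trav3-1 (1.93) followed with edgeR adjusted p of 0.626 to 0.682. In NMUR1+ cells Trav3-4 (-2.59), Trav12-1 (2.24), Trav14-3 (0.94), Trbv12-2 (0.69) and Trav16n (1.97) had the smallest p, all with an edgeR adjusted p of 1.00.

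Evenness overlapped between treatments for every class in both CD4 populations. TRBV evenness in NMUR1+ cells was 0.861, 0.885, 0.876 and 0.878 in NMU mice and 0.826, 0.874, 0.819 and 0.865 in PBS mice (0.875 ± 0.0101 and 0.846 ± 0.0277, n = 4). TRAV evenness there was 0.779 ± 0.0171 and 0.766 ± 0.0114. In NMUR1- cells TRBV evenness was 0.891 ± 0.0114 and 0.894 ± 0.00607 and TRAV evenness 0.810 ± 0.00321 and 0.804 ± 0.0142.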

How the data were processed

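Per the labels' protocols, sorted cells went through RNeasy Micro extraction and a low-input NEBNext library kit, which marks neither strand nor molecules. Per the submitters' processing notes, STAR 2.5.3 was used with the mm10 build. The counter, the annotation and how reads across V, J and C genes were counted were not given in the sources used here, so levels of V, J and C genes are compared only between libraries. The authors deposited whole-number counts per gene, not normalized, and no column was left unused. Of 27179 identifiers, 25275 (93.0%) had a symbol in the RefSeq gene table. Libraries of a group differed by more than sampling noise (lowest chi-square per degree of freedom 15.5), so none was counted as a repeat. Coordinates come from the RefSeq and GENCODE M21 tables of GRCm38, the assembly behind mm10.

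Genes with a minimum count of 10 (filterByExpr) were tested with edgeR 4.0.16 (R 4.3.3): TMM scaling, quasi-likelihood F test, Benjamini-Hochberg adjustment over all genes, threshold 0.05. Populations were compared in 1 fit of 24 libraries, treatments within each population's 8 libraries. DESeq2 1.42.0, other scalings and filters, a replicate block and samples left out were alternatives. CPM use TMM-scaled library sizes. The edgeR fit was tested on simulated counts, with changes larger than those called between the CD4 populations. The evenness index was checked on fixed examples with known answers. Evenness, ratios, distances and positions were computed in Python from raw counts and described without a test. Equal depth means each class drawn down to its smallest CD4 library, by formula for segment numbers and as the mean of 20 seeded draws for distances and spreads.

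Mouse numbers pair the populations, since the labels name the same animal (correlation of deviations between CD4 libraries 0.04 to 0.51). The members, the lists and the rule for named genes were chosen with earlier results of these data known. The rule took the constant genes, segments of invariant receptors and Trbv31, the 3 leading segments of a class in NMUR1- cells, up to 8 members per direction past the threshold or the 5 with the smallest p, the leading segments of ILC2 and the pathway lists. Intervals and floors cover counting error only, since molecules were not marked.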

Additional observations from a re-analysis of the deposited data

Results flagged for a closer look

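Of 60 sets of 8 values checked, 2 had 1 library far from the other 7, and chance alone marks about 1 set in 20. Both were of the NMUR1+ library of mouse 3. Its beta constant counts per Trac count were 0.617, while the other 7 NMUR1+ libraries ran from 0.334 to 0.440. Its TRBV counts per TRAV count were 2.43, while the others ran from 1.63 to 1.96. The NMUR1- library of the same mouse stood at 0.621 and 3.16.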

How the results depend on the processing

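Of the counts and class values compared over alternatives, 552 kept within 1.5 times or 1 SD of the reported value and 24 did not. Of the values of named genes, 426 stayed on their side of the threshold, 32 lost the call, 5 gained it and 1 reversed. Leaving out each mouse in turn, the count of members lower in NMUR1+ than in NMUR1- cells ran from 1 to 6. Without the mice of high immunoglobulin share, chosen after seeing the data, it was 0, and members higher in ILC2 than in NMUR1+ cells were 4 in place of 7, and the mean distance between mice was larger in NMUR1+ than in NMUR1- cells by 0.0505, or 0.0440 at equal depth, in place of 0.115. With libraries scaled to TRAV and TRBV counts, a scale made of members and also chosen after seeing the data, 3 members were higher and 1 lower, and Trac reversed to 0.26. For NMU in ILC2, DESeq2 called 1 member higher, and the fit of all 24 libraries 2 higher and 1 lower. The NMU difference in TRBV evenness of NMUR1- cells was -0.0148 without the mice of high immunoglobulin share. On CPM over total counts the NMUR1+ to NMUR1- differences were -0.42 for TRAV, -0.46 for TRAJ, -0.43 for Trac, -0.82 for TRBV, -0.84 for TRBJ, -0.74 for Trbc1, -0.89 for Trbc2 and -0.83 for both beta constant genes. The cause of these changes was not tested. With each mouse as a replicate block, the counts of members called were 0 higher and 5 lower between the CD4 populations, 7 and 115 for ILC2 against NMUR1+ cells and 5 and 117 for ILC2 against NMUR1- cells. TRBV counts of 0 to 47 per ILC2 library limit what can be said of V use there.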
